A study of Arabidopsis thaliana with 12 samples.

Results

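The response of a leaf to injected current was set against the response of an undamaged leaf to wounding elsewhere on the plant, gene by gene. The value described is the difference between the responses: current leaf 8 minus no-current leaf 8, less leaf 13 of wounded plants minus leaf 13 of unwounded plants. All 12 of the 12 arrays of the series enter it, 3 in each of 4 groups, and it was computed for 13356 genes. A positive difference means that the current response was the higher, a negative difference that the distal wound response was the higher.

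All arrays are Affymetrix ATH1 arrays of leaf RNA from soil-grown Arabidopsis thaliana of the accession Col-0, 5 weeks old, under a day of 10 h of light. Current leaf 8 received 40 µA for 10 s through the petiole, and its lamina was taken 1 h later. No-current leaf 8 had platinum wire in the petiole but no current, and its lamina was taken. Leaf 13 of wounded plants was left intact and was taken 1 h after 40% of leaf 8, at its apex, had been wounded with forceps. Leaf 13 of unwounded plants received nothing. No group carries a mutation or transgene. Whether the 3 arrays of a group come from separate plants or from pools is not in the labels, and p-values cover no more than the spread among the arrays, which may be technical. The stimuli were read in leaves of different position, one of them with a wire in place, in what the labels call separate experiments. Stimulus, leaf position, wire and experiment therefore cannot be told apart in any difference given here. In whole leaves, fewer cells of a type and less RNA per cell cannot be told apart either.

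Wounding a leaf sends electrical signals through the vasculature to other leaves, where the hormone jasmonate is made within minutes. Jasmonate lifts the repression of its transcription factors, and these raise genes for its own synthesis and breakdown as well as for defence. Current injected into a petiole stands in for the electrical part of the signal, although the wire enters the petiole. The comparison therefore asks which parts of the distal response current evokes as strongly.

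Values are log2 RMA expression values, a difference of 1 being a doubling, and levels are given ± SD over 3 arrays. Differences carry the standard error (SE) of limma's fit over all arrays and a p adjusted over all 13356 genes, and a gene is called where that p is under 0.05. Arrays of the same group correlated with r of 0.991 to 0.996, the lowest r of any pair being 0.953. The leaf genes RCA, which activates Rubisco, and LHCB4.2, of the light-harvesting antenna, stood at 12.77 to 12.99 and at 12.35 to 12.61 over all arrays. Of the other cell types a leaf sample could hold, markers of guard cells, vascular tissue, trichomes and senescence gave no called difference, with 2 of 6, 1 of 9, 1 of 4 and 1 of 5 markers analysed, and 0 of 6 dividing cell markers analysed. Their levels did differ between the leaves at the start. The guard cell markers AT1G22690 and FMA were lower in no-current leaf 8, with gaps of -2.36 and -0.99, and the vascular marker SWEET11 was higher, with a gap of 0.70 (limma adjusted p = 8.78e-08, 0.000193 and 0.00254). The part of cell content in the differences was not tested.

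The responses differed in 381 genes (2.85% of those tested). Current gave the higher response in 178 of these (1.33%) and distal wounding in 203 (1.52%). Over all genes the median difference was 0.01, and its median SE was 0.160. The distal wound response itself was called in 1900 genes (14.2%), 776 higher (5.81%) and 1124 lower (8.42%), and the current response in 529 (3.96%), 318 higher (2.38%) and 211 lower (1.58%). The arrays of wounded and unwounded plants did not overlap in 30.3% of all genes, nor those of current and no-current leaf 8 in 16.9%. Of the 381 differences 192 were called in every fit that left out 1 array. The 178 became 113 without unwounded replicate 1, 96 without unwounded replicate 2, 113 without wounded replicate 2, 104 without wounded replicate 3 and 102 without no-current replicate 3, while the 203 became 123 without wounded replicate 3.

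Nearly every difference that could be resolved was a distal wound response that current matched only in part or not at all. Of the 381 genes, 165 responded to distal wounding with no current response, meaning a 95% interval within 1.5-fold either way. They comprised 55 that rose and 110 that fell in leaf 13. Another 107 genes responded to both stimuli in the same direction but more strongly to wounding, 92 rising and 15 falling. Only 9 genes met the reverse rule for current, 4 rising and 5 falling, and in 0 genes was a shared response the stronger after current. In 1 gene both responses were called with opposite signs. The remaining 99 could not be placed: in 48 a called rise and in 44 a called fall after wounding met an uncalled current response with a wider interval, in 3 and 2 a called current rise and fall met such a wound response, and in 2 neither response was called. The 99 became 63 without wounded replicate 3 and 161 without current replicate 2.

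**Figure D1:**
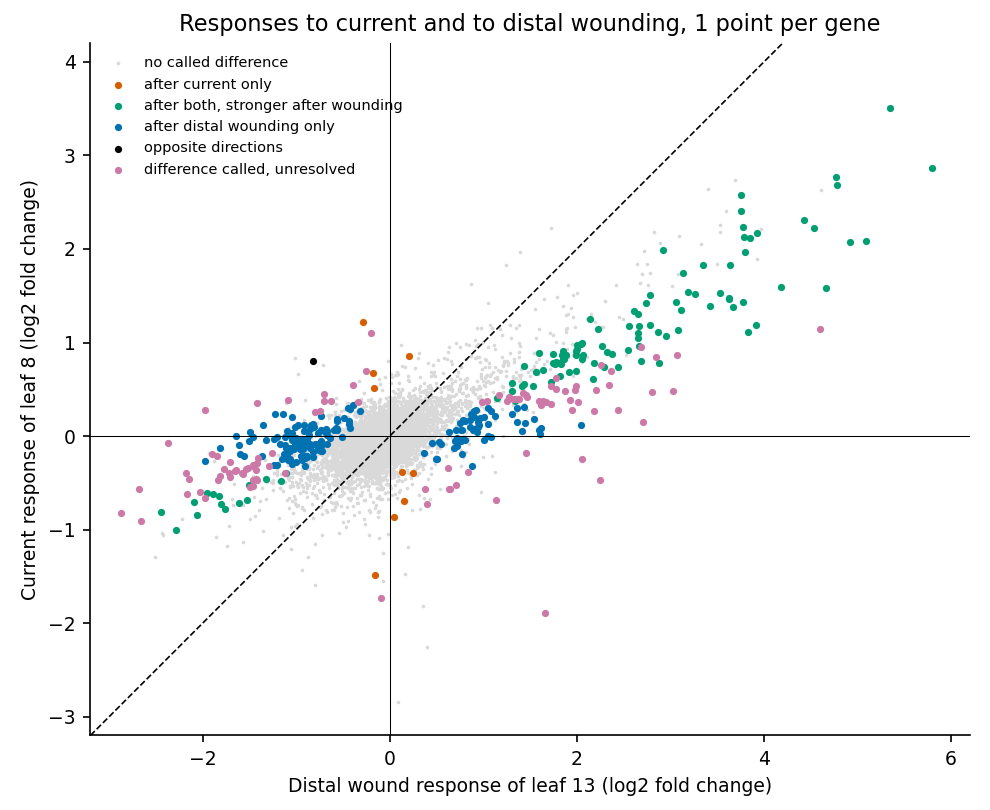
Each point is a gene, with its distal wound response in leaf 13 across and its current response in leaf 8 upwards, both as log2 fold changes; the dashed line marks equal responses. Coloured points are the 381 genes with a called difference. The green points, the 107 genes that responded to both stimuli, lie nearer to the horizontal axis than the dashed line does, and the blue points, the 165 genes that responded to wounding only, lie along the horizontal axis.

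The size of the current response can be read without this choice in genes picked on the wound response alone, because the 2 responses share no arrays. Their calls do share a variance per gene, so the percentages called are not free of the pick. Of the 336 genes that rose at least 2-fold after distal wounding, 326 had a current response above 0 and 63.1% were called higher after current as well. Their median response was 0.80 to current and 1.72 to wounding, and the median ratio of current to wound response was 46.4%. The 189 genes that fell at least 2-fold in leaf 13 followed current less: 22.8% were called lower after current, the medians were -0.39 and -1.24 and the median ratio was 28.8%. Falls were smaller than rises, but in the same size range, from 2- to 4-fold, the ratio was 46.4% in 217 rises and 27.9% in 173 falls. It was 51.6% in 101 rises and 27.6% in 85 falls among those whose no-current leaf 8 and unwounded leaf 13 differed by no more than 0.5.

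**Figure D2:**
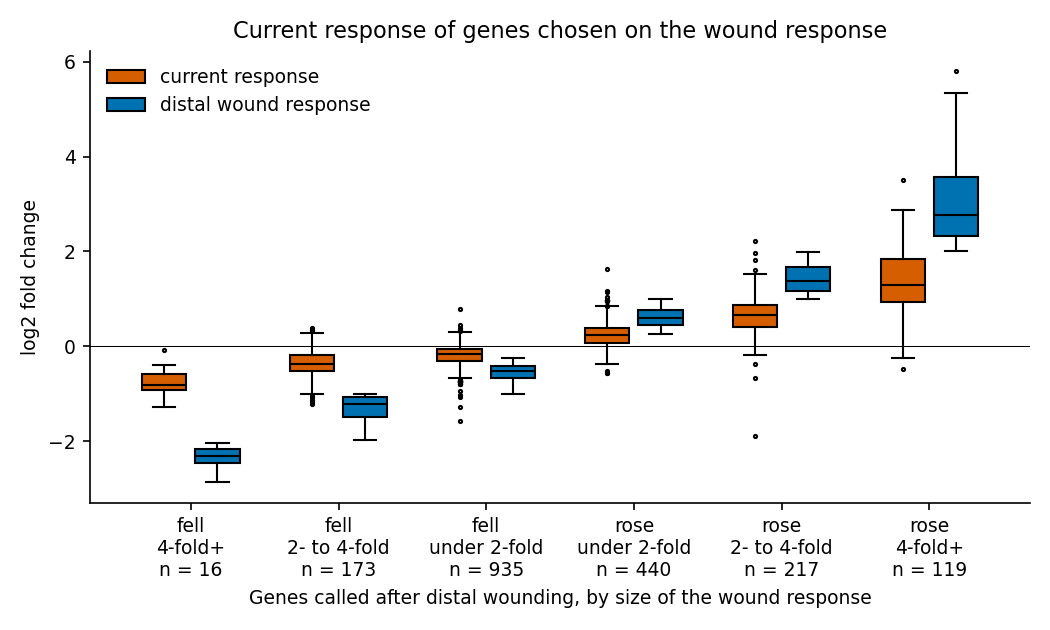
Log2 fold changes of genes called after distal wounding, sorted by the size of that response, with the current response in orange to the left of the wound response in blue; boxes span the quartiles, lines the medians, whiskers reach 1.5 times the box height and points are genes beyond. The current boxes keep the sign of the wound boxes and lie nearer to 0, with medians of 1.3 against 2.78 in the 119 genes that rose at least 4-fold and -0.81 against -2.33 in the 16 that fell at least 4-fold.

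A gene picked on a response tends to have that response overstated, so the picks were also made on current. The 114 genes that rose at least 2-fold after current had a median of 1.47 after current and 2.73 after wounding, and 98.2% of them were called higher after wounding. The 21 genes that fell at least 2-fold after current had medians of -1.13 and -0.80, and 57.1% were called lower after wounding. With all sizes included, the wound response was 161% of the current response in the 318 genes raised by current and 79.9% of it in the 211 genes lowered by current. So over all genes picked, the wound response was the larger under either pick among rises, while among falls the larger response was the one used for picking. These ratios describe the genes and were not tested.

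The groups did not start level. No-current leaf 8 and unwounded leaf 13 differed in 4391 genes (32.9%), and current leaf 8 and leaf 13 of wounded plants differed in 4762 (35.7%). By construction the difference between the responses is the second gap less the first. For 111 of the 381 genes the starting gap was small, with an interval within 1.5-fold, and a gap was called only at the end. For 54 the order was the reverse, a called gap at the start and a small one at the end. For 88 both gaps were called with the same leaf higher, for 48 both were called with the order turned, and 80 met none of these rules. The 92 shared rises had median levels of 6.82 in current and 5.63 in no-current leaf 8, and of 7.72 in wounded-plant and 4.93 in unwounded leaf 13. Among them 45 started higher in no-current leaf 8 and 4 higher in unwounded leaf 13, and at the end 67 stood higher in leaf 13 of wounded plants and 3 in current leaf 8. Over all genes the shares were, in the same order, 16.6% and 16.2% at the start and 16.8% and 18.9% at the end. The choice by difference contributes to these counts, because the difference is computed from both gaps. The 110 falls seen after wounding only began at 6.58 in no-current leaf 8 and 6.61 in unwounded leaf 13, with 32 genes called higher in each.

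**Figure D3:**
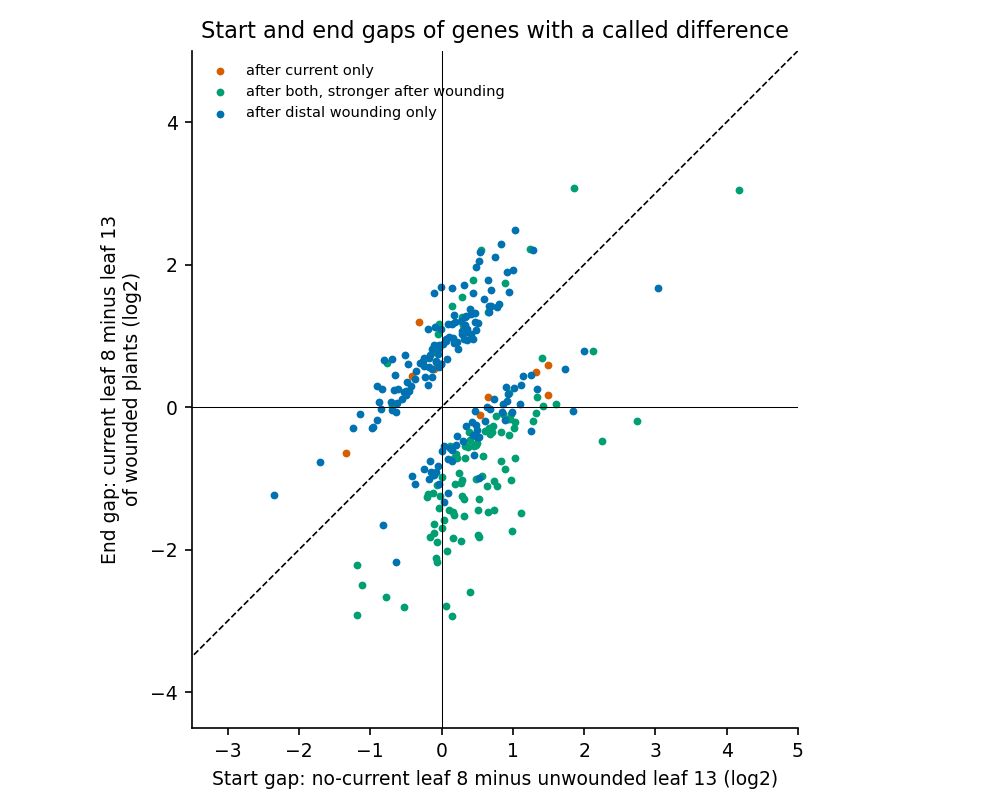
Each point is a gene with a called and placed difference, with the start gap (no-current leaf 8 minus unwounded leaf 13) across and the end gap (current leaf 8 minus leaf 13 of wounded plants) upwards, in log2 units; the 99 unplaced genes and the 1 gene with called responses of opposite sign are not drawn. The vertical distance from the dashed line is the difference between the responses, and the shared rises in green lie mostly right of 0 and below 0, 45 of 92 starting higher in no-current leaf 8 and 67 of 92 ending higher in leaf 13 of wounded plants.

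Genes of jasmonate turnover rose after both stimuli and more after wounding. Of the 5 analysed members of 11 in that list, wounding raised 5 and current 4, and 3 had a called difference, all on the side of wounding. Over all genes the shares were 5.81%, 2.38% and 1.52%. The list's median was -2.04 for the difference, 1.89 for the current response and 3.93 for the wound response, beside 0.01, -0.02 and -0.03 over all genes. AT5G05600 read 9.63, 10.30 and 9.46 in current and 6.81, 7.07 and 6.91 in no-current leaf 8, and 9.88, 10.13 and 9.96 in wounded-plant and 4.73, 4.22 and 3.61 in unwounded leaf 13. Both stimuli thus ended at about the same level, with overlapping arrays (9.80 ± 0.45 and 9.99 ± 0.13), from starts that did not overlap. The gap at the start was 2.74 (limma adjusted p = 1.5e-06) and at the end -0.19 (95% interval -0.71 to 0.32), and its responses of 2.87 to current and 5.80 to wounding differed by -2.93 (SE 0.34, limma adjusted p = 0.000602).

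AT2G38240 and JMT showed the other pattern. JMT (AT1G19640), which methylates jasmonic acid, read 5.59, 5.85 and 5.67 in current and 3.71, 4.28 and 3.88 in no-current leaf 8, and 7.07, 6.92 and 7.37 in wounded-plant and 3.96, 4.18 and 3.84 in unwounded leaf 13. The starts overlapped, and at the end every wounded-plant array lay above every current array. Its responses were 1.74 (SE 0.15) and 3.13 (SE 0.15), and they differed by -1.39 (SE 0.21, limma adjusted p = 0.00252). AT2G38240 likewise started at 4.38 ± 0.29 in no-current leaf 8 and 3.99 ± 0.18 in unwounded leaf 13 and ended at 6.47 ± 0.78 after current and 9.07 ± 0.56 after wounding, a difference of -3.00 (SE 0.45, limma adjusted p = 0.00222). JRG21 (AT3G55970) had a difference of -2.04 (SE 0.55) that did not pass (limma adjusted p = 0.0683), with current arrays at 4.35, 6.33 and 4.25. Without current replicate 2, the high one, it passed at -2.72 (limma adjusted p = 3.03e-05). AT3G11180 rose by 0.36 after wounding but stood near the low end of the scale in all groups, with means of 2.60 in current and 2.41 in no-current leaf 8 and of 2.81 in wounded-plant and 2.45 in unwounded leaf 13, and its difference was -0.16 (SE 0.12).

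OPCL1 (AT1G20510), which activates jasmonate precursors in the peroxisome and was the 1 analysed gene of 16 in the synthesis list, read 9.76, 10.56 and 9.87 in current and 8.14, 8.33 and 8.22 in no-current leaf 8, and 10.99, 11.45 and 11.60 in wounded-plant and 7.83, 7.73 and 7.55 in unwounded leaf 13. The current arrays lay between the no-current and the wounded-plant arrays without overlap. Current raised it by 1.83 (SE 0.19) and wounding by 3.64 (SE 0.19), a difference of -1.81 (SE 0.27, limma adjusted p = 0.00177). For 4CL8 (AT5G38120), a 4-coumarate:CoA ligase-like gene, the responses were 2.22 and 4.54 and the difference -2.31 (SE 0.26, limma adjusted p = 0.000547), from starts of 3.80 ± 0.28 and 3.28 ± 0.16.

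Of 4 analysed jasmonate transcription factors, of 12 listed, 2 differed, beside 2.85% of all genes. ORA47 (AT1G74930), an ERF factor that activates jasmonate synthesis genes, read 5.49, 6.55 and 5.91 in current and 4.01, 4.42 and 4.03 in no-current leaf 8, and 7.64, 7.53 and 7.69 in wounded-plant and 4.26, 4.69 and 3.86 in unwounded leaf 13. The starts overlapped, with a gap of -0.11 (95% interval -0.61 to 0.38), and the ends did not, the wounded-plant arrays being higher. The responses of 1.83 (SE 0.23) and 3.35 (SE 0.23) differed by -1.52 (SE 0.33, limma adjusted p = 0.0207), a call lost on leaving out no-current replicate 2, wounded replicate 3, unwounded replicate 1 or unwounded replicate 3 (limma adjusted p = 0.0564, 0.0603, 0.0546 and 0.0572). NAI1 (AT2G22770), a bHLH factor needed for the endoplasmic reticulum bodies that store defence enzymes, rose by 0.78 (SE 0.19) after current and by 2.88 (SE 0.19) after wounding, a difference of -2.10 (SE 0.26, limma adjusted p = 0.00088). It stood at 3.83 ± 0.21 in no-current leaf 8 and 3.75 ± 0.12 in unwounded leaf 13, and at 4.61 ± 0.48 and 6.63 ± 0.16 after the stimuli. The bHLH factors MYC3 (AT5G46760) and MYC4 (AT4G17880) had differences of -0.53 (SE 0.25) and 0.34 (SE 0.31), which did not pass (limma adjusted p = 0.429 and 0.796).

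Among rapid stress regulators, 4 of 27 analysed, 1 differed, beside 2.85% of all genes. This was STZ (AT1G27730), a zinc finger repressor known also under the name ZAT10. It read 6.66, 7.64 and 7.23 in current and 6.03, 6.13 and 6.05 in no-current leaf 8, and 7.25, 7.70 and 7.98 in wounded-plant and 4.41, 3.70 and 3.34 in unwounded leaf 13. The starts did not overlap and the ends did. Its start gap was 2.25 (limma adjusted p = 1.59e-05), its end gap -0.47 (95% interval -1.03 to 0.10), and the responses of 1.11 and 3.83 differed by -2.72 (SE 0.37, limma adjusted p = 0.00108). GRX480 (AT1G28480), a glutaredoxin that binds TGA factors, rose by 2.21 (SE 0.33) and 3.97 (SE 0.33) from starts of 4.94 ± 0.11 and 4.53 ± 0.31. Its difference of -1.76 (SE 0.47) missed the threshold (limma adjusted p = 0.0655) and passed without wounded replicate 1, current replicate 2 or current replicate 3, at -1.98, -2.18 and -1.26 (limma adjusted p = 0.0426, 0.00542 and 0.0481). WRKY6 (AT1G62300) was at -0.36 (SE 0.23).

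Other shared rises that were stronger after wounding included PUB43 (AT1G76390), a U-box ubiquitin ligase, at 1.07 after current and 2.95 after wounding (difference -1.88, SE 0.22, limma adjusted p = 0.000626). AT4G17470 rose by 1.58 and 4.66 from starts of 3.31 ± 0.57 and 3.16 ± 0.35 (difference -3.08, SE 0.46, limma adjusted p = 0.00203). SWEET16 (AT3G16690), a sugar transporter of the vacuole membrane, rose by 1.00 and 2.06, and its call (difference -1.06, SE 0.26, limma adjusted p = 0.0397) held without wounded replicate 1 or current replicate 2, the fits without any other array giving adjusted p from 0.0512 to 0.114, and array weights 0.0936. Over all 92 shared rises the current response was 43.7% of the wound response at the median, with quartiles of 37.6% and 49.7%, values to which the choice by difference contributes. The 92 became 59 without unwounded replicate 3, 59 without wounded replicate 3, 55 without no-current replicate 2 and 51 without no-current replicate 3.

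**Figure D4:**
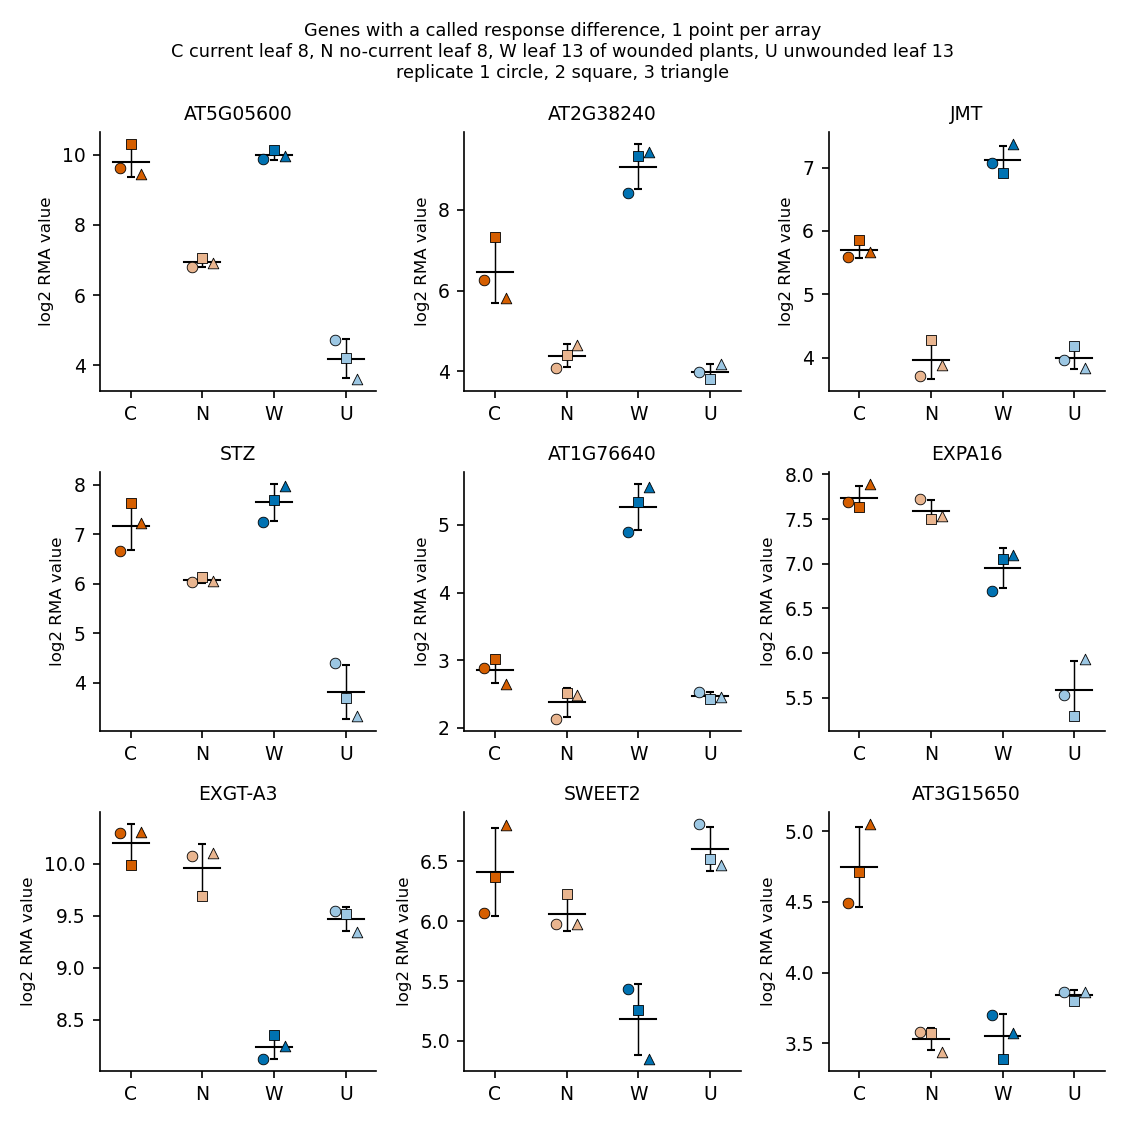
Log2 RMA values of 9 genes on all 12 arrays, with a horizontal bar at each group's mean and an error bar of 1 SD; the vertical axes differ and do not start at 0. AT5G05600 and STZ start apart and end with overlapping arrays, AT2G38240 and JMT start with overlapping arrays and end apart, EXGT-A3 and SWEET2 are lowest in leaf 13 of wounded plants, and AT3G15650 is highest in current leaf 8.

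Of 11 analysed calcium sensor genes, of 15, current raised 1, wounding raised 3 and lowered 1, and 2 had a called difference. Over all genes the shares were 2.38%, 5.81%, 8.42% and 2.85%. The list's median was 0.00 for the current response and 0.03 for the wound response. AT1G76640, listed in the reference as calmodulin-like 39, read 2.89, 3.02 and 2.64 in current and 2.13, 2.52 and 2.48 in no-current leaf 8, and 4.90, 5.34 and 5.56 in wounded-plant and 2.53, 2.43 and 2.45 in unwounded leaf 13. The wounded-plant arrays stood far above the other 9, which lay near the low end of the scale. Its current response of 0.47 (SE 0.16) did not pass, its wound response was 2.80 (SE 0.16) and the difference -2.33 (SE 0.22, limma adjusted p = 0.000301). CML38 (AT1G76650), also calmodulin-like, rose after both, by 1.35 (SE 0.30) and 3.11 (SE 0.30). Its difference of -1.75 (SE 0.42, limma adjusted p = 0.0359) did not pass with array weights (limma adjusted p = 0.0679) or a robust trend (0.113), and passed in only 3 of 12 fits without 1 array, those without wounded replicate 1, no-current replicate 2 or current replicate 2 (0.0601 to 0.109 in the others). AT3G01830 rose by 1.96 after wounding and was at 0.64 (SE 0.35) after current, and its difference of -1.32 (SE 0.50, limma adjusted p = 0.244) passed without current replicate 2 at -1.78 (limma adjusted p = 0.0216). The list's other 8 genes had differences from -0.33 for AT3G25600 to 0.24 for CML42, the member that fell after wounding, by 0.53.

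Genes that rose after distal wounding with no current response numbered 55, with a median response of 0.07 to current and 0.90 to wounding. They became 33 without unwounded replicate 1, 30 without unwounded replicate 3, 33 without wounded replicate 2, 26 without wounded replicate 3, 33 without no-current replicate 2 and 28 without no-current replicate 3. Of the 55, 31 started higher in no-current leaf 8 and 4 in unwounded leaf 13, beside 16.6% and 16.2% of all genes. The choice by difference contributes to these counts. EXPA16 (AT3G55500), an expansin that loosens cell walls, read 7.69, 7.64 and 7.89 in current and 7.73, 7.50 and 7.53 in no-current leaf 8, and 6.69, 7.05 and 7.10 in wounded-plant and 5.53, 5.29 and 5.93 in unwounded leaf 13. Leaf 8 was at the same level with and without current, above leaf 13 even after wounding. Its responses of 0.15 (SE 0.15) and 1.36 (SE 0.15) differed by -1.22 (SE 0.21, limma adjusted p = 0.00635), on a start gap of 2.00. It was the 1 call among the 8 analysed genes of the expansin list, of 14, and among the 19 analysed genes with expansin in their names. Over all genes 2.85% were called. EXPA8 (AT2G40610) and EXPB1 (AT2G20750), at 1.40 (SE 0.47) and 1.00 (SE 0.27), were not called (limma adjusted p = 0.175 and 0.0703), and EXPB1 passed without wounded replicate 1 or no-current replicate 1, at 1.17 and 1.19 (limma adjusted p = 0.0284 and 0.025), and with array weights (limma adjusted p = 0.0425).

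ATPMEPCRB (AT4G02330), a pectin methylesterase also listed as PME41, was at 0.09 (SE 0.22) after current and rose by 1.62 (SE 0.22) after wounding, with means of 4.55 in current and 4.46 in no-current leaf 8 and of 5.56 in wounded-plant and 3.94 in unwounded leaf 13. The difference was -1.53 (SE 0.31, limma adjusted p = 0.016) and just missed the threshold on leaving out wounded replicate 3, at 0.0515, or unwounded replicate 2, at 0.051 by limma's adjusted p. AT4G36010 had the second largest difference on this side among calls held without any 1 array, -3.46 (SE 0.44, limma adjusted p = 0.00088). Its levels were 8.64 ± 0.74 in current and 7.50 ± 0.43 in no-current leaf 8 and 10.12 ± 0.39 in wounded-plant and 5.53 ± 0.28 in unwounded leaf 13. The current response of 1.14 (SE 0.31) just missed the threshold (limma adjusted p = 0.0548), so it could not be placed.

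UDP-glycosyltransferases attach sugars to small molecules. The 43 analysed genes with such a name or synonym in the reference gave 7 calls, 4 with the higher response after current and 3 after wounding. Members known there by locus number only are not among the 43. Over all genes the shares were 2.85%, 1.33% and 1.52%. Within this named set the 3 were all of the 76E group, of which 4 genes were analysed under that name. UGT76E12 (AT3G46660) read 2.51, 2.59 and 2.63 in current and 2.16, 2.37 and 2.35 in no-current leaf 8, and 4.09, 5.12 and 5.66 in wounded-plant and 2.42, 2.57 and 2.55 in unwounded leaf 13. It left the low end of the scale only on the wounded-plant arrays. The difference was -2.16 (SE 0.37, limma adjusted p = 0.00487), with a current response of 0.28 (SE 0.26) and a wound response of 2.44 (SE 0.26). Its neighbour by locus number UGT76E11 (AT3G46670) rose by 0.95 after wounding and was at 0.12 after current (difference -0.83, SE 0.17, limma adjusted p = 0.0149), and did not start low, at 6.01 ± 0.22 in no-current leaf 8 and 6.09 ± 0.04 in unwounded leaf 13. UGT76E1 and UGT76E2, named after their values were seen, had differences of -0.76 (SE 0.18, limma adjusted p = 0.0369) and 0.15 (SE 0.14). Probes of such related genes may cross-hybridise, and how far these 4 genes were read apart was not tested. The calls of the other sign were UGT74D1 (AT2G31750) at 1.20 and, named after their values were seen, UGT88A1 at 0.81, UGT85A5 at 0.68 and UGT76C2 at 0.63. For UGT74D1 the call ended without any 1 of the unwounded arrays, wounded replicate 2 or 3, or no-current replicate 1 or 2 (limma adjusted p from 0.0603 to 0.098).

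All 6 analysed cold and dehydration genes, of 24, had a difference below 0, and 4 of them were called. Over all genes 6296 of 13356 lay below 0 and 1.52% were called on that side. Wounding raised 4, current raised 0 and lowered 1, beside 5.81%, 2.38% and 1.58% of all genes. All 6 started higher in no-current leaf 8, by 2.62 at the median, where 16.6% of all genes were called higher at the start. The list's median was -1.57 for the difference, -0.47 for the current response and 0.74 for the wound response. LTI30 (AT3G50970), a dehydrin that protects membranes and proteins in the cold, read 8.58, 8.63 and 7.76 in current and 8.16, 7.83 and 8.17 in no-current leaf 8, and 7.29, 7.54 and 7.79 in wounded-plant and 5.48, 5.36 and 5.22 in unwounded leaf 13. The current and no-current arrays overlapped, and the wounded-plant arrays lay well above the unwounded ones without reaching most arrays of leaf 8. Its responses of 0.27 (SE 0.20) and 2.18 (SE 0.20) differed by -1.91 (SE 0.28, limma adjusted p = 0.00172).

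COR47 (AT1G20440), another dehydrin, read 11.31, 11.26 and 11.05 in current and 11.61, 11.54 and 11.61 in no-current leaf 8, and 9.73, 9.83 and 10.07 in wounded-plant and 8.96, 9.12 and 9.03 in unwounded leaf 13. Current arrays lay below no-current arrays and wounded-plant arrays above unwounded ones, with neither pair overlapping. The current response of -0.38 (SE 0.10) did not pass (limma adjusted p = 0.0595), the wound response was 0.84 (SE 0.10) and the difference -1.22 (SE 0.15, limma adjusted p = 0.000681). COR15A (AT2G42540) and COR15B (AT2G42530), which protect chloroplast membranes, had current responses of -0.32 (SE 0.11) and -0.57 (SE 0.17), which did not pass, wound responses of 0.88 and 0.64, and differences of -1.20 (SE 0.16, limma adjusted p = 0.00108) and -1.21 (SE 0.24, limma adjusted p = 0.0129). In unwounded leaf 13, their lowest group, LTI30 averaged 5.36 and COR15A 10.27, against a median of 4.31 over all genes there.

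In the other cold genes the 3 current arrays disagreed. COR27 (AT5G42900), a cold-induced regulator that also acts in the clock, read 8.23, 5.99 and 4.07 in current and 8.47, 8.35 and 8.24 in no-current leaf 8, and 3.21, 2.80 and 3.02 in wounded-plant and 2.72, 2.61 and 2.52 in unwounded leaf 13. Current replicate 1 stood close to the no-current arrays, replicates 2 and 3 far below. The difference of -2.66 (SE 0.91) did not pass (limma adjusted p = 0.185), and without current replicate 1 it was -3.72 (limma adjusted p = 0.00135). In AT4G33980 current replicate 1 again stood nearest to the no-current arrays, with 6.48, 3.48 and 3.15 in current against 7.24, 7.11 and 7.27 in no-current leaf 8 and wounded-plant and unwounded means of 2.35 and 2.26. Its current response was called at -2.84 (SE 0.57), its difference of -2.93 (SE 0.81) was not (limma adjusted p = 0.0759), and without current replicate 1 it was -3.98 (limma adjusted p = 3.44e-08), and with array weights -3.25 (limma adjusted p = 0.0133).

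AT1G07050, in none of the lists, had the largest negative difference among calls held without any 1 array, and shared this spread. It read 7.54, 6.11 and 4.30 in current and 8.08, 7.88 and 7.65 in no-current leaf 8, and 4.56, 4.17 and 4.44 in wounded-plant and 2.62, 2.78 and 2.78 in unwounded leaf 13. The difference was -3.55 (SE 0.72, limma adjusted p = 0.0152), made of a wound response of 1.66 and a current response of -1.89 that did not pass (limma adjusted p = 0.0546), and it was not called with a robust trend (limma adjusted p = 0.115). GI (AT1G22770), a clock gene of the evening and the 1 analysed of 20 in that list, read 8.16, 7.75 and 7.52 in current and 8.73, 8.18 and 8.37 in no-current leaf 8, and its difference was -0.67 (SE 0.24, limma adjusted p = 0.2). The start gaps were 5.74 for COR27, 4.95 for AT4G33980, 5.14 for AT1G07050 and 1.22 for GI, no-current leaf 8 being the higher. The hour of harvest is not given in the labels used here, and its part in these values was not tested.

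**Figure D5:**
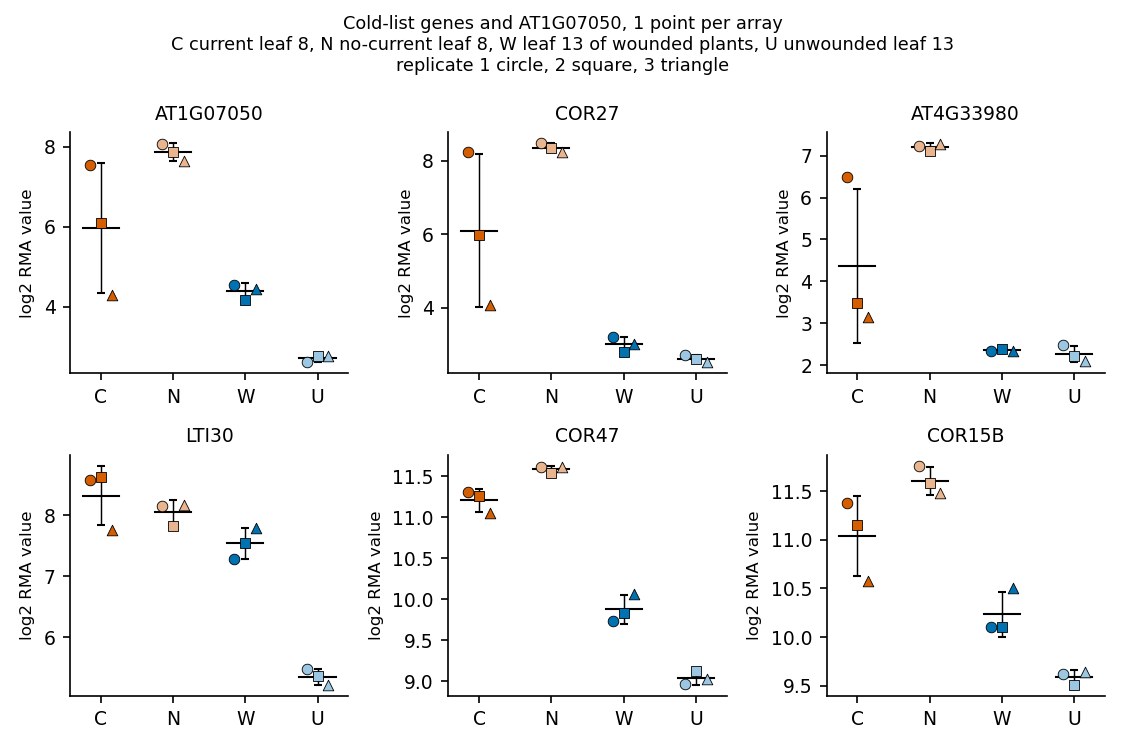
Log2 RMA values of 5 genes of the cold list and of AT1G07050 on all 12 arrays, with a bar at each group's mean and an error bar of 1 SD; the vertical axes differ and do not start at 0. In the upper row current replicate 1 lies near the no-current arrays and current replicates 2 and 3 lie below them, and in the lower row both kinds of leaf 8 stand above the unwounded leaf 13.

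Falls made up the larger group of responses to wounding only, 110 genes with a median response of -0.08 to current and -0.94 to wounding. They became 66, 55 and 72 without unwounded replicates 1, 2 and 3, 67 and 60 without wounded replicates 2 and 3, 70 and 48 without no-current replicates 2 and 3, and 69 without current replicate 3. EXGT-A3 (AT2G01850), the xyloglucan endotransglucosylase XTH27 that rejoins wall polymers, read 10.30, 9.99 and 10.31 in current and 10.08, 9.69 and 10.10 in no-current leaf 8, and 8.12, 8.35 and 8.24 in wounded-plant and 9.55, 9.52 and 9.34 in unwounded leaf 13. Leaf 8 overlapped with and without current, and leaf 13 fell after wounding without overlap. Its responses of 0.24 (SE 0.13) and -1.23 (SE 0.13) differed by 1.48 (SE 0.18, limma adjusted p = 0.000681).

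Other named falls of this kind belonged to different functions. MYR2 (AT3G04030), a MYB-related factor, was at -0.05 after current and fell by 1.5 after wounding, starting higher in no-current leaf 8 (5.72) than in unwounded leaf 13 (4.69). NGA2 (AT3G61970), a B3 factor of leaf and carpel shape, was at 0.12 and fell by 0.84. CYP71B29 (AT1G13100) was at -0.31 and fell by 1.24. It was the only called gene of 24 analysed with a cytochrome P450 name, beside 2.85% of all genes. GH3.9 (AT2G47750), of the family that conjugates auxin and other acids, was at -0.19 and fell by 1.13, starting lower in no-current leaf 8 (3.70 ± 0.24) than in unwounded leaf 13 (5.41 ± 0.14). Their differences were 1.45, 0.96, 0.94 and 0.94, with limma adjusted p of 0.0114, 0.0118, 0.00643 and 0.00643.

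Of 11 analysed SWEET sugar transporters, of 12, 2 differed in each direction, beside 1.33% of all genes higher after current and 1.52% higher after wounding. SWEET2 (AT3G14770), of the vacuole membrane, read 6.07, 6.37 and 6.80 in current and 5.98, 6.23 and 5.98 in no-current leaf 8, and 5.43, 5.26 and 4.85 in wounded-plant and 6.81, 6.52 and 6.47 in unwounded leaf 13. Wounded-plant arrays were the lowest, and the no-current arrays lay below the unwounded ones without overlap. The start gap was -0.54 (limma adjusted p = 0.0302), and the responses of 0.35 to current, not called, and -1.42 to wounding differed by 1.77 (SE 0.25, limma adjusted p = 0.00147). SWEET13 (AT5G50800), a sucrose transporter, was at 0.05 after current and fell by 0.92 after wounding, while SWEET4 (AT3G28007) was at 0.21 and rose by 1.13. Both started higher in no-current leaf 8, SWEET13 by 0.92 and SWEET4 by 0.50. Those 2 calls (differences 0.97 and -0.92, limma adjusted p = 0.0299 and 0.0308) each ended in 7 of 12 fits without 1 array (limma adjusted p from 0.0539 to 0.0914): both without unwounded replicate 2, wounded replicate 2 or 3, no-current replicate 3 or current replicate 3, SWEET13 also without unwounded replicate 1 or no-current replicate 1, and SWEET4 also without unwounded replicate 3 or no-current replicate 2. SWEET16 is described above, and SWEET1 and SWEET11 were at 0.77 (SE 0.30) and 0.30 (SE 0.22), not called.

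Several of the largest called positive differences, beside that of SWEET2, belonged to genes that fell in leaf 13 while current gave no called response. AT5G12050 read 6.98, 7.28 and 8.26 in current and 8.00, 7.02 and 7.71 in no-current leaf 8, and 5.04, 4.98 and 4.23 in wounded-plant and 7.15, 7.31 and 6.91 in unwounded leaf 13. The wounded-plant arrays alone were low, 2.30 being the difference (SE 0.43, limma adjusted p = 0.00889, and 0.0623 with a robust trend). AT5G47610 was at 0.28 (SE 0.19) after current and fell by 1.98 (SE 0.19) after wounding, a difference of 2.26 (SE 0.27, limma adjusted p = 0.000632). For AT5G07580 the values were -0.82 (SE 0.28) and -2.87 (SE 0.28), the difference being 2.05 (SE 0.40, limma adjusted p = 0.011, and 0.0629 with a robust trend). AT4G37080 was at -0.40 (SE 0.17) and fell by 2.18 (SE 0.17), a difference of 1.78 (SE 0.24, limma adjusted p = 0.00108). P1R1 (AT5G57780) was at -0.19 (SE 0.23) and fell by 1.90 (SE 0.23), a difference of 1.71 (SE 0.33, limma adjusted p = 0.0109). It started lower in no-current leaf 8, with a gap of -1.14 (limma adjusted p = 0.00154), while the start gaps of the other 4 were not called.

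IAA29 (AT4G32280), an Aux/IAA repressor that auxin induces, read 6.43, 6.28 and 7.16 in current and 7.82, 6.47 and 7.29 in no-current leaf 8, and 4.34, 4.34 and 3.28 in wounded-plant and 6.46, 6.86 and 6.68 in unwounded leaf 13. The 3 wounded-plant arrays stood apart below the rest. Its difference of 2.11 (SE 0.46, limma adjusted p = 0.0233) did not pass with a robust trend (limma adjusted p = 0.12), without unwounded replicate 2 or 3, wounded replicate 3 or no-current replicate 3 (0.0683, 0.0582, 0.0576 and 0.0519). It was the 1 called gene of 4 analysed auxin response genes, of 12, beside 2.85% of all genes. GH3.3 and WES1 were at -1.08 (SE 0.44) and -0.15 (SE 0.36). AT5G61590, listed as DEWAX and a repressor of wax synthesis, had levels of 7.73 ± 0.54 in current and 8.64 ± 0.21 in no-current leaf 8 and of 5.18 ± 0.58 in wounded-plant and 7.84 ± 0.24 in unwounded leaf 13. Its difference of 1.76 (SE 0.38, limma adjusted p = 0.0228) did not pass with a robust trend (limma adjusted p = 0.102), without unwounded replicate 1 or 2, wounded replicate 2 or 3 or no-current replicate 2 (0.0603 to 0.0679). The other analysed genes of the wax list, 3 of 13, were WSD1 at 0.17 (SE 0.51) and AT5G33370 at 0.06 (SE 0.24).

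Falls shared by both stimuli and deeper after wounding numbered 15, with a median of -0.68 after current and -1.80 after wounding. Their count became 9 without unwounded replicate 2, 28 without wounded replicate 1, 6 without no-current replicate 1, 5 without no-current replicate 3 and 6 without current replicate 2. AOP1 (AT4G03070), of the dioxygenases that modify glucosinolate side chains, read 5.19, 4.69 and 5.25 in current and 5.60, 5.47 and 5.99 in no-current leaf 8, and 4.03, 3.97 and 3.67 in wounded-plant and 5.84, 5.72 and 5.60 in unwounded leaf 13. The starts overlapped and the wounded-plant arrays ended lowest. It fell by 0.64 and 1.83, a difference of 1.19 (SE 0.23, limma adjusted p = 0.0105). GSTU27 (AT3G43800), a glutathione transferase, was the 1 call of 12 analysed with that name, beside 2.85% of all genes. It fell by 0.72 and 1.61 (difference 0.89, SE 0.21, limma adjusted p = 0.0298), a call that ended without any 1 unwounded or no-current array or wounded replicate 2 or 3 (limma adjusted p from 0.0508 to 0.0918).

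Transcripts of the plastid genome leaned one way. Of 69 analysed, 67 had a difference above 0, 5 were called, and the median was 0.43. Over all genes 7060 of 13356 lay above 0, 2.85% were called, and the median was 0.01. The median response was 0.13 to current and -0.31 to wounding. Wounding lowered 17 and raised 0, and current raised 1, beside 8.42%, 5.81% and 2.38% of all genes. At the start 26 stood higher and 8 lower in no-current leaf 8, beside 16.6% and 16.2% of all genes. rbcL, the large subunit of Rubisco, read 9.90, 10.21 and 10.20 in current and 9.91, 9.74 and 9.56 in no-current leaf 8, and 8.46, 8.49 and 8.13 in wounded-plant and 9.03, 9.01 and 8.92 in unwounded leaf 13. Wounded-plant arrays lay below unwounded ones, and current arrays overlapped no-current ones. The difference was 1.00 (SE 0.18, limma adjusted p = 0.00635, the highest without 1 array being 0.0219). petL, of the cytochrome b6f complex, and psaI, of photosystem I, had differences of 1.07 (SE 0.26) and 1.02 (SE 0.25), with limma adjusted p of 0.04 and 0.0437. Their start gaps were larger, petL standing at 7.08 in no-current leaf 8 and 4.64 in unwounded leaf 13, and psaI at 9.50 and 7.79. Both calls ended without any 1 unwounded array, wounded replicate 3, no-current replicate 2 or 3 or current replicate 2 or 3, petL also without wounded replicate 1 and psaI without wounded replicate 2 (limma adjusted p from 0.0594 to 0.122), and that of psaI with quantile normalization (0.055). The other calls, petG at 0.94 and ccsA at 0.95, like rbcL, were named after their values were seen. Plastid transcripts share an organelle and its copy number, so they are not independent of each other, and labelling primed on poly(A) tails reads them only in part.

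Responses to current with no wound response were few, 4 rises and 5 falls, and these genes are named after their values were seen. AT3G15650 read 4.49, 4.71 and 5.05 in current and 3.58, 3.57 and 3.44 in no-current leaf 8, and 3.70, 3.39 and 3.57 in wounded-plant and 3.86, 3.80 and 3.86 in unwounded leaf 13. The current arrays stood above the other 9, which overlapped or nearly so. It rose by 1.22 (SE 0.13) after current and was at -0.29 (SE 0.13) after wounding, a difference of 1.51 (SE 0.18, limma adjusted p = 0.000626, the highest without 1 array being 0.00318). The other rises were those of PRN (AT3G59220), a pirin, by 0.86, TINY2 (AT5G11590), an ERF factor of the DREB group, by 0.67, and AT3G09440 by 0.51. AT3G09440 and TINY2 started lower in no-current leaf 8, by a gap of -1.34 and -0.42 (limma adjusted p = 2.15e-07 and 0.0395), and PRN had a start gap of -0.11 that was not called. PRN and TINY2 lost their called differences (0.65 and 0.85, limma adjusted p = 0.0419 and 0.0411) with median centring (0.0532 and 0.0563), PRN with quantile normalization (0.0709) or a robust trend (0.0688), TINY2 with array weights (0.0509), PRN without any 1 array but wounded replicate 3 (0.0536 to 0.119) and TINY2 without any but wounded replicate 3, no-current replicate 2 or current replicate 1 (0.0598 to 0.115).

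AT2G23910 was the deepest of the falls after current only. It read 2.66, 2.07 and 2.15 in current and 3.77, 3.85 and 3.72 in no-current leaf 8, and 2.31, 2.09 and 1.97 in wounded-plant and 2.38, 2.26 and 2.21 in unwounded leaf 13. No-current leaf 8 was the only group above the low end of the scale, and current brought the gene to the level of leaf 13, so that a fall in leaf 13 could hardly be read. The difference was -1.32 (SE 0.19, limma adjusted p = 0.00177). All 5 falls started higher in no-current leaf 8, by 1.33 at the median, beside 16.6% of all genes. The choice by difference contributes to this. The others were SCPL49 (AT3G10410), a carboxypeptidase, AT1G26665, AT1G07520 and AT3G26470, with current responses from -0.87 to -0.38. In unwounded leaf 13 AT1G07520 averaged 2.73 and AT3G26470 2.74, the first quartile of mean level over all genes being 2.66. A fall in leaf 13 could hardly be read in these genes either. SCPL49 had its call (difference -0.91, limma adjusted p = 0.0422) with all arrays and without current replicate 1, and in no other fit that left out 1 array (0.0599 to 0.113), and AT1G07520 only without wounded replicate 1 or 3 or current replicate 1 or 2 (0.0514 to 0.072 in the others), and not with a robust trend (0.0549).

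AT1G72800 was the gene in which both responses were called with opposite signs. It read 6.78, 6.65 and 6.87 in current and 5.96, 6.04 and 5.92 in no-current leaf 8, and 4.60, 4.04 and 5.20 in wounded-plant and 5.32, 5.42 and 5.57 in unwounded leaf 13. Neither pair of groups overlapped. It rose by 0.80 (SE 0.20) and fell by 0.82 (SE 0.20), a difference of 1.62 (SE 0.28, limma adjusted p = 0.00565, the highest without 1 array being 0.0213). These small counts moved with single arrays. The 4 rises after current only became 1 without unwounded replicate 2 or wounded replicate 1, 2 without unwounded replicate 1 or 3, wounded replicate 2 or 3 or current replicate 2, and 10 without current replicate 1. The 5 falls became 3 without any 1 unwounded array, wounded replicate 2 or no-current replicate 1 or 3, and 22 without current replicate 1. Without current replicate 1, 4 genes rose after current and fell after wounding and 10 did the reverse, against 1 and 0 with all arrays. AT1G72800 kept a called difference in every such fit, but in several of them 0 genes had both a called rise after current and a called fall after wounding. These were the fits without any 1 unwounded array, no-current replicate 2 or 3 or current replicate 3. The reverse pattern was met by 1 gene without unwounded replicate 2 or wounded replicate 3.

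Of 401 genes called in the same direction after both stimuli, 294 had no called difference, and in 83 of these the 95% interval of the difference lay within 1.5-fold, 39 rising and 44 falling. Their responses were modest, with medians of 0.53 to current and 0.61 to wounding for the rises and -0.52 and -0.55 for the falls. GAUT15 (AT3G58790), a galacturonosyltransferase-like gene of pectin synthesis, read 7.19, 7.78 and 7.39 in current and 6.55, 6.39 and 6.39 in no-current leaf 8, and 6.59, 6.64 and 6.94 in wounded-plant and 5.64, 5.85 and 5.68 in unwounded leaf 13. Both pairs of groups were separate and the shifts were of one size, 1.01 and 1.00, although leaf 8 started 0.72 higher; the difference was 0.01 (95% interval -0.41 to 0.43). SFP1 (AT5G27350), a sugar porter, rose by 0.52 and 0.62. Among the falls were ALDH2C4 (AT3G24503), an aldehyde dehydrogenase that makes ferulic and sinapic acid, by 0.45 and 0.51, and IQD28 (AT1G14380), a calmodulin-binding protein, by 0.62 and 0.70. SCPL45 (AT1G28110) fell by 0.56 and 0.55, AT5G41920, listed as SCARECROW-LIKE 23, by 0.59 and 0.42, and CRR42 (AT5G20935), needed for the chloroplast NDH complex, by 0.55 and 0.37. The 39 rises became 24 without wounded replicate 2, 23 and 17 without no-current replicates 1 and 3 and 19 without current replicate 2, and the 44 falls became 29 without unwounded replicate 3, 26 and 29 without no-current replicates 1 and 3 and 17 without current replicate 2.

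The analysed list members of several functions gave no called difference, which does not show that the responses were equal. Genes of the same functions outside the lists are not covered by these counts. Of 8 analysed glutamate receptor-like channel genes, of 20, limma called 0. GLR3.3 (AT1G42540), a channel that carries the wound signal between leaves, read 5.88, 6.36 and 6.30 in current and 5.60, 5.75 and 5.91 in no-current leaf 8, and 6.53, 6.72 and 6.96 in wounded-plant and 5.63, 5.82 and 5.87 in unwounded leaf 13. Wounding separated its groups and current nearly did, and the difference was -0.53 (95% interval -0.96 to -0.10, limma adjusted p = 0.247). GLR3.6 (AT3G51480), which acts beside it, was at 0.24 (95% interval -0.18 to 0.67) and GLR1.4 at -0.38 (95% interval -0.96 to 0.20). In the glucosinolate list, 5 of 22 analysed, current and wounding each raised 3, beside 2.38% and 5.81% of all genes, and limma called 0 differences. The glucosinolate transporters GTR1 (AT3G47960) and GTR2 (AT5G62680) rose by 1.98 and 0.96 after current and by 2.72 and 1.39 after wounding, with differences of -0.74 (95% interval -1.36 to -0.11) and -0.43 (95% interval -0.86 to -0.00).

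All 11 analysed autophagy genes, of 18, started higher in no-current leaf 8, by 0.77 at the median, beside 16.6% of all genes. Wounding lowered 4 and current 1, beside 8.42% and 1.58% of all genes, and limma called 0 differences, with a median of 0.16. ATG8E (AT2G45170), which coats autophagosomes, fell by 0.65 and 1.45, and its difference of 0.80 (SE 0.22, limma adjusted p = 0.0776) passed without unwounded replicate 3 or wounded replicate 2, at 0.97 and 0.96 (limma adjusted p = 0.028 and 0.0313). ATG8F (AT4G16520) was at 0.52 (SE 0.18, limma adjusted p = 0.196) and passed without current replicate 1 at 0.65 (limma adjusted p = 0.0485). The defensins PDF1.2 and PDF1.2b, jasmonate and ethylene outputs, had differences of 1.84 (SE 1.04) and 1.64 (SE 0.88), resting on unwounded replicate 1, where they read 7.62 and 8.02 against 3.80 to 4.02 and 4.55 to 5.21 on the other unwounded arrays. Limma called 0 of the 4 analysed genes of the heat shock list, of 16, with a median of -0.08 and AT1G53540 farthest from 0 at -0.38. Heat shock genes outside the list were not read as a group. Of the photosynthesis list, of 20, limma called 0 of 3 analysed genes, LHCB4.2 being at 0.13 and RCA at 0.12. The same held for the 1 analysed gene each of the salicylic acid, ethylene, vascular, trichome and senescence lists (SAG101 at 0.07, EIN3 at -0.06, SWEET11 at 0.30, TRY at 0.60 and SAG29 at -0.07) and for both guard cell genes (FMA at 0.29 and AT1G22690 at 0.28), while of 12 JAZ repressors 0 had a probe set named here.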

How the data were processed

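The authors deposited log2 expression values for 12 ATH1 arrays, and per the submitters' processing notes RMA and Affymetrix Power Tools were used. Their log base is not stated and was taken as 2 from the range of 1.46 to 13.3. Versions are not given in the sources used here. Of 22746 probe sets that are not controls, 13513 had 1 named gene, 503 had several and 8730 had none here. Probe sets of 1 gene were averaged, which gave 13356 genes, 14.6% of the reference's genes with a symbol and 63.1% of those with a locus number only, so many known pathway genes were not analysed here.

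One limma model (limma 3.58.1, R 4.3.3) with a mean per group was fitted to all 12 arrays, with moderated two-sided tests, Benjamini-Hochberg adjustment over 13356 genes and a threshold of 0.05. With 3 arrays a group, the number of arrays limits the precision. On simulated data of 13356 genes, 83% of 2-fold and 100% of 4-fold response differences were recovered. Members and lists were chosen with earlier results of these data known. The genes named are the 5 largest positive and 5 largest negative differences held without any 1 array, the 5 largest annotated ones of each response class, up to 4 called and 2 other members of each list, 2 called members of each family of at least 10, and GLR3.3 and GLR3.6; exceptions are marked. Same-numbered arrays of leaf 8 (r of -0.02, 0.04 and -0.07 between their deviations) and of leaf 13 (-0.02, -0.05 and 0.03) did not vary together. Alternatives were quantile normalization, median centring, array weights, a robust trend, filters on dim genes, all probe sets, genes with start levels within 0.5, a test against 1.5-fold, a replicate block, other bounds for no response and leaving out each array. Promoter motifs were not analysed here.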

Additional observations from a re-analysis of the deposited data

Results flagged for a closer look

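The responses to current and to distal wounding differed by limma's test of the difference itself, with current the higher in 178 genes and distal wounding in 203. Of the probe sets with no gene or several genes named here, which enter no comparison above, 456 of 9233 (4.94%) had a called difference, 207 with the higher response to current and 249 with the higher response to wounding, against 393 of 13513 (2.91%) among probe sets of 1 named gene.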

How the results depend on the processing

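Of 53 named genes with a called difference, 40 did not lose the call in any of 7 settings with every array. These were quantile normalization, median centring, array weights, a robust trend, both filters on dim genes and the replicate block. A gene removed by a filter on dim genes was not counted as losing its call there. The test against 1.5-fold, all probe sets and the start level window were not read gene by gene. Of the 40, 34 also kept the call without any 1 array, and 0 of the 53 turned direction. Among 45 named genes with no called difference, 9 were called under some setting and 9 turned direction: GAUT15 to -0.02 with median centring, WSD1 to -0.10 with array weights, and in fits without 1 array AT5G33370 (-0.13 to 0.21), EIN3 (-0.14 to 0.02), GAUT15 (-0.15 to 0.14), IQD28 (-0.08 to 0.22), SAG101 (-0.02 to 0.16), SAG29 (-0.24 to 0.06), SCPL45 (-0.14 to 0.14), WES1 (-0.48 to 0.24) and WSD1 (-0.37 to 0.58). Against a 1.5-fold difference, limma's treat called 7 genes higher after current and 27 higher after wounding. With start levels within 0.5 there were 102 and 92, comprising 27 rises and 68 falls after wounding only, 47 and 8 shared and stronger after wounding, 40 unplaced, and 0 falls after current only and 0 opposite. Over all probe sets there were 390 and 459, comprising 101 rises and 225 falls after wounding only, 16 and 10 after current only, 222 and 33 shared and stronger after wounding, 3 and 4 opposite, 235 unplaced, and 89 and 113 alike.

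With array weights, rises after current only numbered 7, shared falls stronger after wounding 24, opposite responses 3 with wounding higher and 4 with current higher, and alike rises and falls 68 and 77. Opposite responses with wounding higher numbered 1 with median centring, 2 with a robust trend, 2 without the dimmest 25% and 3 without the dimmest 50%, where 2 rises and 3 falls after current only were left. With 1.3-fold as the bound for no response, wounding only took in 23 rises and 45 falls, current only 1 and 1, unplaced genes 203 and alike genes 5 and 8, and with 2-fold there were 93 rises after wounding only, 7 after current only, 17 unplaced and 119 and 85 alike. The causes of these changes were not tested, beyond the genes and bounds each setting changes by construction.

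With the replicate number as a block, 174 and 220 genes were called, falls after current only numbered 11 and opposite responses with wounding higher 3. Same-numbered arrays did not vary together, and whether the numbers pair them is not known, so these counts are a description only. Without 1 array, the genes higher after current numbered 96 to 226 and those higher after wounding 123 to 266. Rises and falls after wounding only ranged from 26 to 71 and from 48 to 144, those after current only from 1 to 10 and from 3 to 22, shared ones stronger after wounding from 51 to 115 and from 5 to 28, opposite ones from 0 to 10 with wounding higher and from 0 to 4 with current higher, unplaced genes from 63 to 161, and alike genes from 17 to 57 and from 17 to 60.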
